A study of Mus musculus with 4 samples.

Results

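The eIF4A2 eCLIP peaks on the RNA of 4 subunits of the BAF chromatin remodelling complex are described here: Arid1a, Smarca4, Smarcc1 and Smarcb1. The members were the peaks of the deposited list whose midpoint lay in a window around each gene, on the strand of the gene, and they numbered 67 of the 47777 peaks in the list. Arid1a had 35 of them, Smarca4 13, Smarcc1 9 and Smarcb1 10. The members were selected on position and strand among peaks that the authors' IP over input fold of more than 2 had placed in the list, and the genes were chosen with that list known. Counts and folds are therefore given as a description, with no test.

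The study profiled RNA bound by eIF4A2 in J1 mouse embryonic stem cells of the 129S4/SvJae strain, kept free of feeder cells in serum and leukemia inhibitory factor. The IP group (2 libraries) held RNA recovered with an anti-eIF4A2 antibody after ultraviolet crosslinking, and the input group (2 libraries) held RNA of the same crosslinked cells without that recovery. All 4 libraries came from 1 line, with no genetic change or drug named in the labels. The measure is the authors' log2 fold of IP over input at each peak, and the list gives 1 value per peak for all libraries together. The spread between replicates, the depth of the libraries and the error of a single fold are therefore unknown, and differences between peaks cannot be set against replicate error. The list also gives no RNA level for any gene, so a number of peaks cannot be related here to how abundant a transcript was.

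BAF complexes use the energy of ATP to slide or evict nucleosomes, and they open chromatin at enhancers and promoters. Smarca4 (also called BRG1) is an ATPase that drives the reaction, Smarcc1 (BAF155) is a scaffold of the core, and Smarcb1 (SNF5) belongs to the core and contacts the nucleosome. Arid1a is a large subunit with an ARID DNA-binding domain that marks the canonical form of the complex. Embryonic stem cells have a form built around BRG1, BAF155 and ARID1A that is needed for self-renewal and pluripotency. The helicase eIF4A2 belongs to the DEAD-box proteins and has a close paralog, eIF4A1, which unwinds mRNA leaders during translation initiation.

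Windows are in mm9, and positions count from 1. The Arid1a window ran over chromosome 4 from 133233000 to 133311000 on the minus strand (78 kb). The Smarca4 window covered 21419000 to 21511000 of chromosome 9 on the plus strand (92 kb), and the Smarcc1 window covered 110032000 to 110146000 of the same chromosome and strand (114 kb). The Smarcb1 window covered 75357000 to 75387000 of chromosome 10 on the minus strand (30 kb). In the GRCm38 annotation (GENCODE M21) the genes span 77.8 kb for Arid1a, 88.1 kb for Smarca4, 122 kb for Smarcc1 and 24.8 kb for Smarcb1, so the Smarcc1 window is shorter than the annotated gene and the others are longer. Exons of protein-coding transcripts make up 12.1% of the annotated span of Arid1a, 7.35% of Smarca4, 5.63% of Smarcc1 and 6.68% of Smarcb1. Those lengths come from another build. The peaks were not placed on exons, introns or UTRs, and their sequences were not analysed here.

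Peaks on Arid1a and Smarcb1 RNA were denser than those on Smarca4 and Smarcc1 RNA. The windows held 4.49 peaks per 10 kb for Arid1a and 3.33 for Smarcb1, against 1.41 for Smarca4 and 0.789 for Smarcc1. The peaks covered 1401 bases of the Arid1a window (1.8%), 324 bases for Smarcb1 (1.08%), 298 bases for Smarca4 (0.324%) and 344 bases for Smarcc1 (0.302%). The 67 peaks lay on the strand of their gene by selection. The opposite strand of the 4 windows held 0 peaks. Tiles of the list were one-sided to a varying extent. Of the 47 tiles of 78 kb, cut end to end over all chromosomes, with at least 35 peaks on both strands together, 28 (59.6%) had peaks on a single strand. Of the 694 tiles of 30 kb with at least 10 peaks, 518 (74.6%) did. The share was 378 of 781 (48.4%) for tiles of 92 kb with at least 13 peaks, and 779 of 1675 (46.5%) for tiles of 114 kb with at least 9 peaks.

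**Figure D1:**
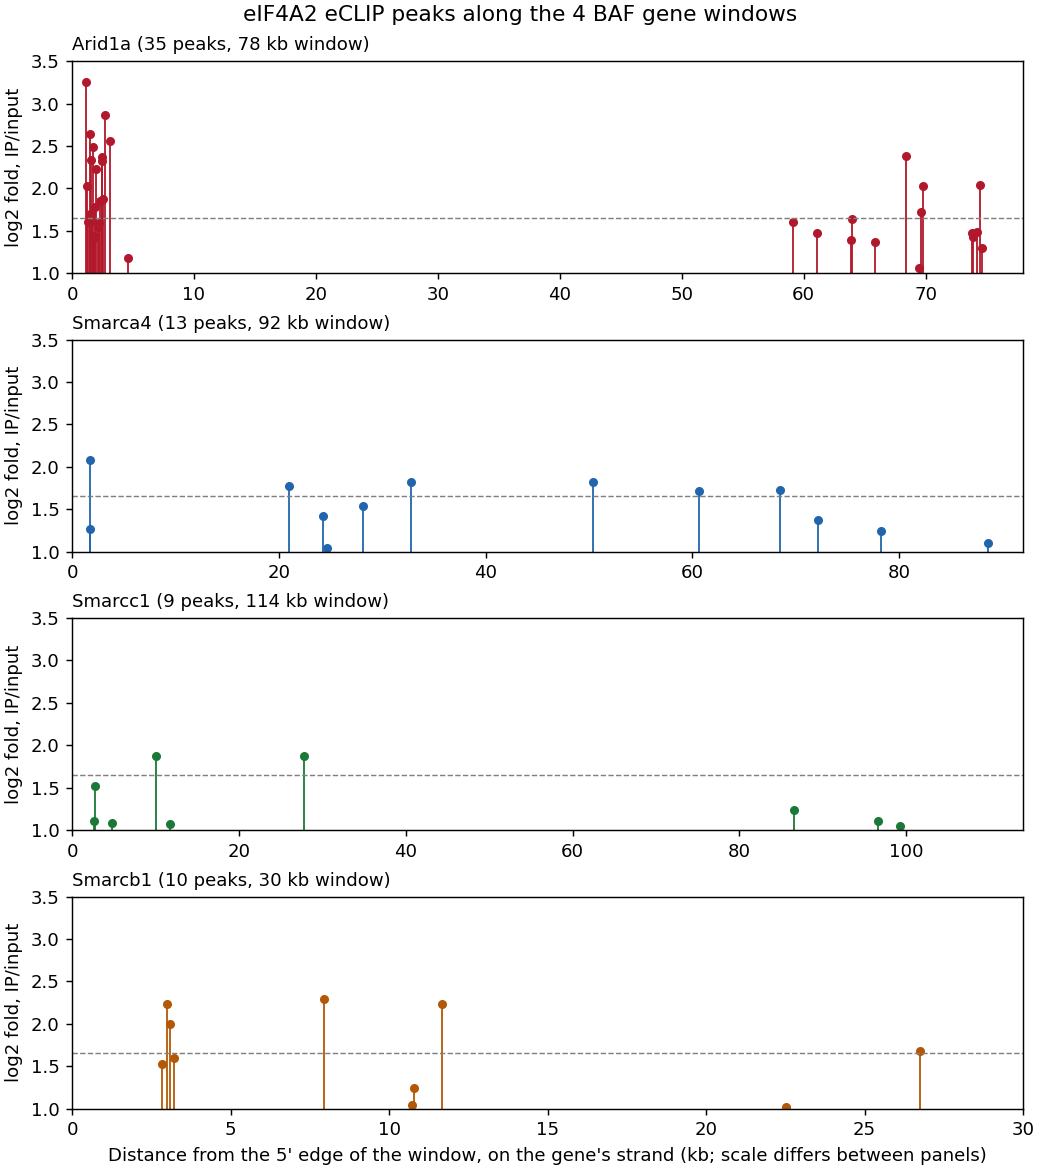
Peaks along the 4 windows, with the distance of each peak's midpoint from the 5′ edge of its window in kb on the x axis, on the strand of the gene, and the log2 fold of IP over input on the y axis, which starts at 1, the lower limit of the list. Each point is 1 peak and the dashed line is the median of the whole list (1.65); the Arid1a peaks fall into a group at each end of the window, with 54.5 kb between them.

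The number of peaks in each window was set beside that in tiles of the same length on one strand over all chromosomes. At least 35 peaks were found in 42 of 67522 tiles of 78 kb, which is 0.0622% of all tiles and 0.36% of the tiles that held any peak. With peaks up to 50 bases apart merged, in the tiles as in the window, the share of all tiles was 0.118%. For Smarcb1, at least 10 peaks were found in 0.349% of tiles of 30 kb (3.57% of those with any peak). For Smarca4, at least 13 peaks were found in 1.07% of tiles of 92 kb (5.67% of those with any peak). For Smarcc1, at least 9 peaks were found in 3.06% of tiles of 114 kb (14.4% of those with any peak). Tiles with any peak held a median of 3 peaks at 78, 92 and 114 kb, and 2 peaks at 30 kb. All 4 windows thus exceeded the median of the tiles with any peak, but the genes were chosen with the list known. The order by scarcity was Arid1a, Smarcb1, Smarca4 and Smarcc1. Windows drawn around genes and tiles cut without regard to genes are not alike, so these shares describe the list and carry no p-value.

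**Figure D2:**
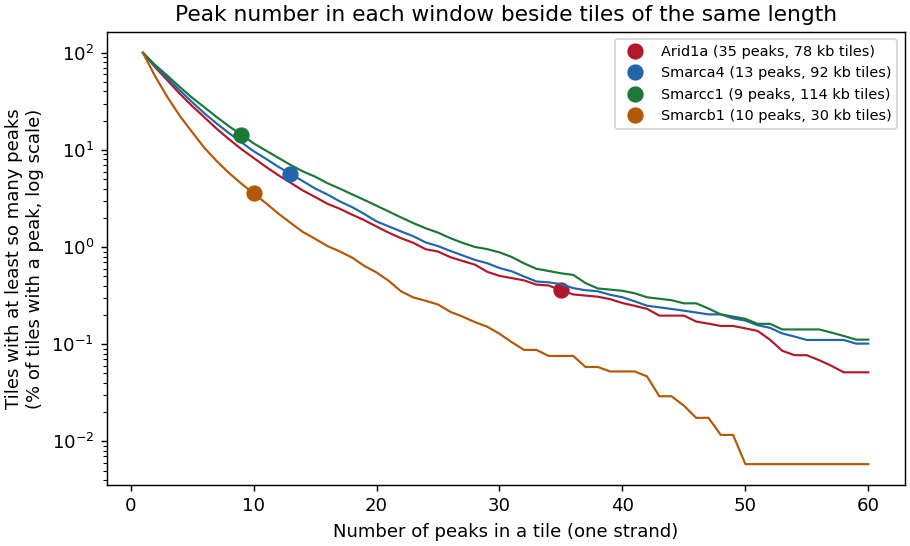
Share of tiles with at least a given number of peaks on one strand, among tiles with any peak, on a log scale; each line is for tiles as long as 1 of the windows, and each point marks the number of peaks in that window. The Arid1a point, at 35 peaks and 0.36% of tiles, lies lowest, and the Smarcc1 point, at 9 peaks and 14.4%, lies highest.

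Enrichment over the 67 peaks was close to that of the list, with a wide range among the genes. The 67 peaks had a median log2 fold of 1.61, against 1.65 over all 47777 peaks. Of the 67 peaks, 17 (25.4%) had a log2 fold of 2 or more (4-fold), against a background of 28.3% of all peaks. At 3 or more (8-fold) there was 1 of the 67 peaks, against a background of 4.03%. By gene, 13 of 35 Arid1a peaks reached 4-fold (37.1%, exact 95% interval 21.5 to 55.1%), as did 3 of 10 Smarcb1 peaks (30%, 6.67 to 65.2%), 1 of 13 Smarca4 peaks (7.69%, 0.195 to 36%) and 0 of 9 Smarcc1 peaks (an upper bound of 33.6%). These intervals reflect only the counting of peaks, taken as independent, and each of them includes the background of 28.3%.

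In the list as deposited, the gene medians had the same order as these shares. Arid1a had a median log2 fold of 1.7 (3.25-fold), with an interquartile range of 1.47 to 2.27. Smarcb1 followed with 1.64 (3.12-fold), from a lowest peak of 1.02 to a highest of 2.29. Smarca4 had 1.54 (2.91-fold), from 1.05 to 2.08. The Smarcc1 median was 1.11 (2.16-fold), from 1.05 to 1.88, and 7 of its 9 peaks lay below the median of the list. The exact 95% intervals of the medians were 1.55 to 2.03 for Arid1a, 1.05 to 2.24 for Smarcb1, 1.24 to 1.82 for Smarca4 and 1.07 to 1.88 for Smarcc1. They treat peaks as independent, although neighbouring peaks of a gene share an RNA and the same libraries. The intervals overlap between all 4 genes, but such overlap is not a test of a difference. Whether the medians differ between genes was not tested, and their order is given only as a description.

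**Figure D3:**
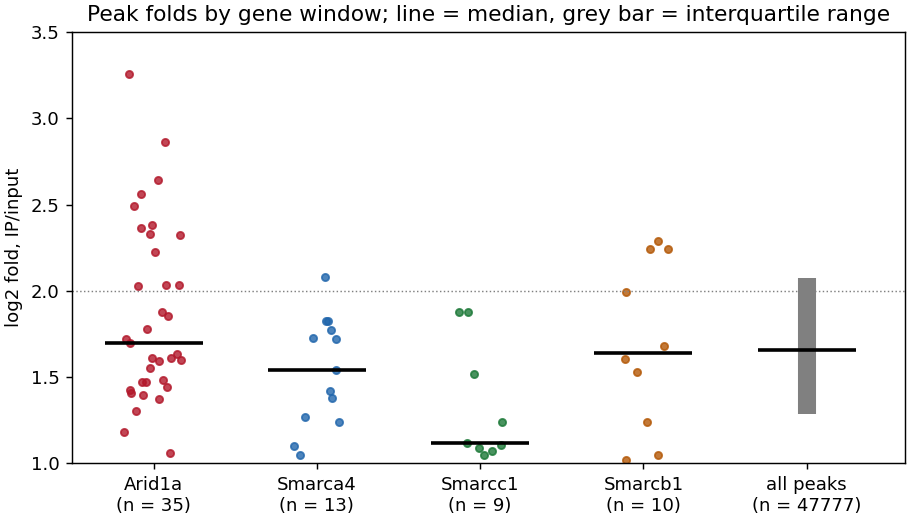
Log2 fold of IP over input of each peak by gene window, with 1 point per peak (the sideways spread within a gene is only for legibility), a black line at each median, and for the whole list its median and interquartile range (grey bar, 1.29 to 2.07). Arid1a alone among the 4 has a peak above 3, and the Smarcc1 median of 1.11 lies below the grey bar.

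Arid1a, a subunit of canonical BAF with a DNA-binding domain, carried its peaks at the ends of its window. A group of 21 peaks lay in 3.51 kb near the 5′ edge, from 133306376 to 133309884, and 14 peaks lay in 15.5 kb near the 3′ edge, from 133236387 to 133251885. Between them was a run of 54.5 kb with no listed peak, which is 69.9% of the window. With the window cut into 5 equal sections, Arid1a had, in 5′ to 3′ order, 21, 0, 0, 2 and 12 peaks.

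The 5′ group was dense. When peaks up to 1000 bases apart were joined into stretches, 20 of the 35 peaks formed 1 stretch of 2012 bases, from 133307873 to 133309884, and peaks covered 45.7% of it. In the whole list, 16 of 31595 stretches held 20 or more peaks, and this was 1 of them. Its median log2 fold was 1.95 (interquartile range 1.61 to 2.4), and 69 of the 172 stretches with 10 or more peaks had a higher median. The first exon of the longest annotated protein-coding Arid1a transcript is 1143 bases long in GRCm38, shorter than the stretch. Whether the stretch overlaps that exon was not tested.

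The highest fold of all 67 peaks was that of the 5′-most Arid1a peak, at 133309848 to 133309884, which stood at 3.26 on the log2 scale (9.55-fold). The peak that touches it on the 3′ side, 79 bases wide at 133309769 to 133309847, had a much lower log2 fold of 2.03 (4.07-fold). The second highest, at 133308301 to 133308331, had 2.86 (7.28-fold). A peak at 133309533 to 133309600 followed with 2.64 (6.23-fold). The one after it, at 133307873 to 133307878, had 2.56 (5.9-fold) and was 6 bases wide, and the next, at 133309252 to 133309330, had 2.49 (5.63-fold). All 5 belonged to the 5′ stretch, where high and low peaks lay side by side along the RNA. The lowest peak of the stretch, at 133309153 to 133309161, had 1.41 (2.66-fold). In the window, 6 neighbouring pairs touched with no base between them, and 24 of the 34 gaps between neighbours were at most 200 bases.

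**Figure D4:**
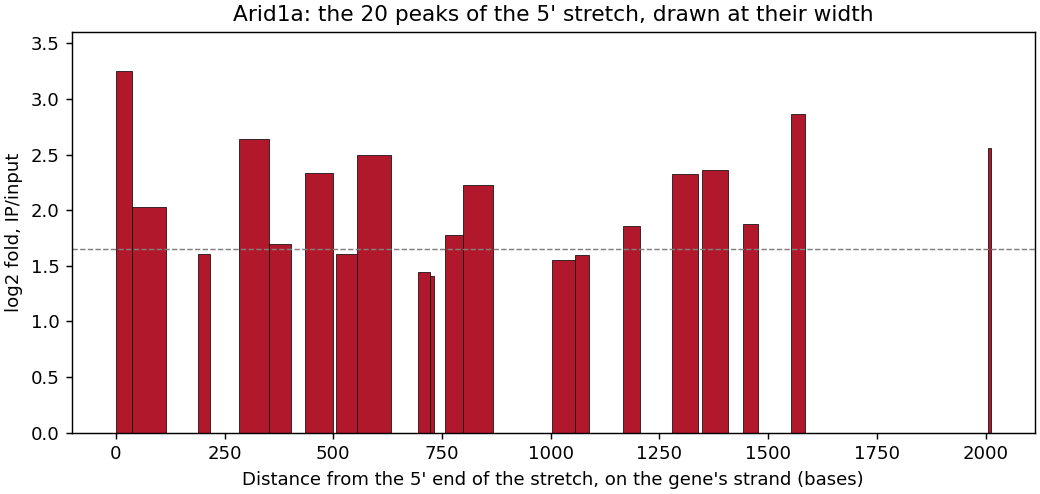
The 20 peaks of the 5′ stretch of Arid1a, with the distance from the 5′ end of the stretch in bases on the x axis and the log2 fold of IP over input on the y axis; each bar is 1 peak drawn at its width, and the dashed line is the median of the whole list (1.65). The 5′-most bar is the highest at 3.26, and 14 of the 20 bars exceed the dashed line.

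Peaks near the 3′ edge of Arid1a were more scattered, and their median fold was lower. They numbered 14, against 21 at the 5′ edge, but with peaks up to 50 bases apart merged they numbered 14, against 10 at the 5′ edge. The 14 peaks fell into 7 stretches, against 2 for the 21 peaks at the 5′ edge. Their median log2 fold was 1.48 with 3 of 14 at 4-fold or more, against 1.88 with 10 of 21 at the 5′ edge. The median width was 32.5 bases at the 3′ edge, against 43 bases at the 5′ edge. The highest fold of the 3′ group was 2.38 (5.22-fold), at 133242587 to 133242651. Another peak, at 133236551 to 133236593, had 2.04 (4.1-fold), and one more, at 133241229 to 133241248, had 2.03 (4.09-fold). The 3′-most peak of the gene, at 133236387 to 133236413, had 1.3 (2.46-fold). It closed a stretch of 5 peaks in 794 bases with a median of 1.47, the second most populated stretch of the gene. The split into 5′ and 3′ groups was made after the values were seen, so the groups are described without a test.

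Wider Arid1a peaks tended to have higher folds. Spearman's rho of width with log2 fold was 0.52 over the 35 peaks, against 0.04 over the whole list. Over the 32 peaks of the other 3 genes together it was 0.06. Taken singly, it was 0.23 for Smarca4 (13 peaks), 0.27 for Smarcb1 (10 peaks) and -0.27 for Smarcc1 (9 peaks). The value over the list pools peaks of all genes, so it is not a like measure for a single gene. Neighbouring Arid1a peaks share an RNA and the same libraries, so the 35 points are not independent. The 5′ group had both wider peaks (median 43 bases, against 32.5) and higher folds (median log2 fold 1.88, against 1.48) than the 3′ group. Whether width and fold went together within each group was not tested.

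Smarcb1, a core subunit, had 10 peaks in the shortest window, 8 of them in the 2 of 5 sections nearest the 5′ edge. The most populated stretch held 4 peaks in 412 bases, 2.84 to 3.22 kb from the 5′ edge. In 5′ to 3′ order, its peak at 75384133 to 75384179 had a log2 fold of 1.53 and the next, at 75383992 to 75384017, had 2.24. They were followed by 75383897 to 75383951 with 1.99 and by one at 75383768 to 75383799 with 1.6. The fold was thus highest inside the stretch and lowest at its 5′ end. Beyond 4710 bases without a peak came the highest fold of the gene, 2.29 (4.89-fold), at 75379016 to 75379057.

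The rest of the Smarcb1 peaks were mixed. A loose stretch of 3 peaks in 992 bases held a low peak at 75376279 to 75376295 (log2 fold 1.05), another at 75376191 to 75376212 (1.24) and a high one at 75375304 to 75375324 (2.24, or 4.72-fold). After a run of 10.8 kb without a peak, the lowest of all 67 folds, 1.02 (2.02-fold), was found at 75364477 to 75364503. The 3′-most peak, at 75360243 to 75360277, had 1.68 (3.2-fold). The 3 Smarcb1 peaks at 4-fold or more were thus among the 8 peaks on the 5′ side of the 10.8 kb run. Only 2 peaks lay on its 3′ side, too few to place the high folds.

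Smarca4, the ATPase, had isolated peaks spread over its whole window. Its 13 peaks fell into 11 stretches, of which 9 held a single peak, and no stretch held more than 2. Peaks up to 10000 bases apart, when joined, made stretches of at most 5 peaks. In 5 equal sections from 5′ to 3′ it had 2, 5, 1, 3 and 2 peaks, and the median gap between neighbours was 5303 bases, against 74.5 bases for Arid1a. The highest fold belonged to the 5′-most peak, at 21420746 to 21420761, and was 2.08 on the log2 scale (4.23-fold), the single Smarca4 peak at 4-fold or more. It touched a 36-base peak at 21420762 to 21420797 with 1.27 (2.41-fold). As in Arid1a, but not in Smarcb1 or Smarcc1, the 5′-most peak had the highest fold and a touching neighbour well below it.

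The next Smarca4 folds were nearly level. The peaks at 21451794 to 21451825 and at 21469343 to 21469357 had the same log2 fold of 1.82 (3.54-fold). The peak at 21439984 to 21440024 had 1.77 (3.42-fold), and the one at 21487460 to 21487483 had 1.73 (3.31-fold). The 3′-most peak, 10 bases wide at 21507566 to 21507575, had 1.1 (2.14-fold). Smarca4 peaks were narrow, with widths of 10 to 41 bases and a median of 21 bases, against 32 bases over the list.

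Smarcc1, the scaffold subunit, had the fewest peaks, in the longest window, and the lowest median and maximum fold of the 4 genes. Of its 9 peaks, 5 lay in the 5′-most of 5 sections, and a run of 58.6 kb with no listed peak took up 51.4% of the window. At the 5′ edge a 117-base peak at 110034605 to 110034721, the widest of the 67, had a log2 fold of 1.1 (2.15-fold). It was 1 base away from a 65-base peak at 110034723 to 110034787 with 1.52 (2.87-fold). Here, as in Smarcb1, the 5′-most peak was lower than the next peak, unlike in Arid1a and Smarca4. A peak of 4 bases at 110036741 to 110036744 had 1.09 (2.13-fold).

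The remaining Smarcc1 peaks were single. The highest log2 fold of the gene, 1.88 (3.67-fold), was given both at 110042116 to 110042132 and at 110059830 to 110059842, and between them a peak at 110043709 to 110043759 had 1.07 (2.1-fold). Near the 3′ edge, the peak at 110118488 to 110118503 had 1.24 (2.36-fold). It was followed by 1.11 (2.16-fold) at 110128537 to 110128562 and 1.05 (2.07-fold) at 110131243 to 110131277. None of the 3 peaks at the 3′ edge reached the list median of 1.65.

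At the edges of the windows, the nearest peaks outside lay 4.52 kb beyond the 3′ edge for Arid1a (log2 fold 1.53) and 4.25 kb beyond the 5′ edge for Smarcb1 (1.45). The nearest peaks inside those edges were 3.4 kb away for Arid1a (1.3) and 2.84 kb away for Smarcb1 (1.53). The other 6 edges had their nearest outside peak on the same strand 21.4 kb away or farther. In GRCm38, Mmp11 lies within 5 kb of Smarcb1 and Cspg5 within 5 kb of Smarcc1 on the same strand. No other protein-coding gene lies that close to any of the 4 on the same strand. To which gene the peak outside the Smarcb1 window belongs was not tested.

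Some log2 folds recurred. The 67 peaks held 58 distinct values, and 6 values were shared by 15 peaks. The value 1.24 occurred in Smarca4, Smarcb1 and Smarcc1, and in 4301 peaks of the list; the value 1.05 occurred in the same 3 genes and in 1030 peaks of the list. After removal of 1 constant, 0.24 on the log2 scale, the folds of all 67 peaks were log2 ratios of whole numbers with denominators up to 78 (tolerance 1e-08). With denominators up to 200, the same held for 47758 of the 47777 peaks of the list (99.96%), so it is a trait of the whole list. The value 1.24 is then the ratio 2 to 1, and 1.05 is 7 to 4. Denominators above 10 were found at 27 of the 35 Arid1a peaks (77.1%) and 7 of the 13 Smarca4 peaks (53.8%), against 24.3% of the list. They were found at 1 of the 9 Smarcc1 peaks and 0 of the 10 Smarcb1 peaks. The 5′-most Arid1a peak was at 89 to 11, and the wide 5′ peak of Smarcc1 was at 111 to 61. Such a ratio is in lowest terms and leaves the counts behind it unknown, and whether the ratios are read counts was not tested.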

How the data were processed

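RNA bound by eIF4A2 and input RNA were sequenced from J1 mouse embryonic stem cells, with 2 IP and 2 input libraries. The submitters' processing notes name STAR 2.6.1b, cutadapt 1.18 and mm9; the peak caller and the combining of replicates are not given in these sources. The authors deposited 1 peak list in which each peak has a log2 IP/input value, all above 1 (2-fold). The scale was read from the values, since no header states it.

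Starts were changed to count from 1, and a peak was assigned by its midpoint and strand. Genes, windows and alternatives were chosen with earlier results of these data known. Every peak was named for genes with at most 12, and otherwise the 5 highest, the 5′-most, the 3′-most and the most populated stretch; further Arid1a and Smarca4 peaks were named after their values were seen. Stretches joined peaks within 1000 bases. Other BAF subunits were not analysed here, as no mm9 annotation was used. The GRCm38 annotation gave only lengths and names of neighbours. Intervals are exact binomial (95%). No test was run. Peak assignment, joining, merging, the tile total and the search for the constant were tested on simulated data. The intervals and Spearman's rho were not. Python 3.11.15, numpy 2.4.6, scipy 1.17.1, pandas 2.3.3 and matplotlib 3.10.9 were used.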

Additional observations from a re-analysis of the deposited data

How the results depend on the processing

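Of 77 alternative values, 53 stayed within the set range (1.5 times for counts, the exact 95% interval for the rest) and 24 did not. The peak counts at stricter fold limits and on the opposite strand, which are of other sets of peaks, are among the 24. At a log2 fold of at least 2, Arid1a kept 13 of its 35 peaks, Smarca4 1 of 13, Smarcc1 0 of 9 and Smarcb1 3 of 10. At a log2 fold of at least 3 the counts were 1, 0, 0 and 0 in the same order. A minimum width of 20 bases left 8 Smarca4 and 5 Smarcc1 peaks. Windows shortened by 5 kb at each side left 9 Arid1a and 5 Smarcb1 peaks, because their 5′ groups and their 3′-most peaks lie within 5 kb of an edge; windows extended by 5 kb held 37 and 11. The opposite strand held 0 peaks in each window. Joining at 10000 in place of 1000 bases raised the largest stretch to 5 peaks for Smarca4 and Smarcc1, against 2 each. For Smarcb1 it rose to 8 peaks inside the window, against 4, and the whole stretch ran past the window and held 12. Merging peaks within 50 bases left 24 Arid1a peaks, 10 in the 5′ group and 14 in the 3′ group, a split added after seeing the data, and raised the share of tiles with as many peaks to 0.118%, against 0.0622%. Their median distance from the 5′ edge was then 80.1% of the window, against 3.3% without merging, since the peaks lie at both ends. Despite its size, this shift was counted among the 53 values within the set range. Every median log2 fold stayed within its interval under each of its 5 alternatives. The intervals were wide, and the alternatives reused peaks of the same windows, so staying inside says little. The Smarcb1 median was 1.24 with the window shortened by 5 kb, against 1.64, and still lay within 1.05 to 2.24. With windows shortened, or with peaks within 50 bases merged, the Smarca4 median (1.63) was the highest of the 4 genes. The order of the medians held under the other alternatives. No paired analysis was possible because the list does not separate the libraries, which also prevented leaving out a replicate. Limits set by depth were not measured, since the list holds no counts.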
